A study of Arabidopsis thaliana with 12 samples.

Results

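The genes described here are 9 neighbouring loci on chromosome 4 of Arabidopsis thaliana that encode small secreted proteins of the lipid transfer type: AZI1 (AT4G12470), EARLI1 (AT4G12480), AT4G12490, AT4G12500, AT4G12510, AT4G12520, AT4G12530, AT4G12545 and AIR1 (AT4G12550). They were chosen by locus identifier, and all 9 were found among the 27827 loci measured. EARLI1 was already known to differ strongly between PMEIox and its wild type and between cnu1 and PMEIox when the cluster was picked. The members' values in the comparisons that hold PMEIox arrays are therefore a description: no p is given for a member there, and the number of members past the threshold stands only beside the share of all loci. For loci outside the cluster a test may be given in any comparison, though some are given by level only. The comparisons among Col-0, cnu1 and cnu2 hold no PMEIox arrays, and there the members are given with their test too, although these results were also known.

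RNA came from whole seedlings kept in the cold for 48 h, lit for 6 h and then grown in darkness for 4 days at 22 °C, and was labelled with biotin by Affymetrix's protocol for arrays, with 3 arrays for each of 4 genotypes. The genotypes were Col-0, the wild type; PMEIox, a Col-0 transformant that overexpresses PMEI5 (AT2G31430), an inhibitor of the enzymes that remove methyl groups from wall pectin; and cnu1 and cnu2, mutants isolated as suppressors of PMEIox, which carry the PMEIox transgene as well. In cnu1 the mutated gene is known to be that of the steroid hormone receptor BRI1 (AT4G39400), and in cnu2 it is RLP44 (AT3G49750), which encodes a receptor-like protein. The promoter of the transgene and the number of lines behind each genotype are not given in the sources used here. The replicates, lettered A, B and C, were harvested in successive weeks per the design text, which does not say which letter is which week. The values are read as log2 intensities, so a difference of 1 is a doubling.

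Proteins of this group carry a signal peptide, mostly a proline-rich stretch, and a C-terminal domain with a fixed pattern of cysteines that forms a pocket for lipids. AZI1 is known to be induced by azelaic acid and to be needed for the priming of defence in distant leaves, a response called systemic acquired resistance. EARLI1 was named for its early induction by aluminium and also responds to cold, and AIR1 was found among genes induced by auxin in root cultures and is linked to lateral root formation. Such tandem copies resemble each other in sequence, and how the probes of each locus were chosen is not given in the sources used here, so some signal may be shared between members. No sequence table was used here.

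The PMEI5 values bear on the labels. PMEI5 lay between 12.53 and 12.69 on the 9 arrays of the transgenic genotypes. In Col-0 it stood at 8.19 on array A, 5.05 on array B and 4.49 on array C, so array A of Col-0 stands apart. Without that array EARLI1 differed by 4.22 and AZI1 by 1.16 between PMEIox and Col-0, in place of 4.27 and 1.27. BRI1 had means from 7.47 in PMEIox to 7.81 in cnu1, and the mean of RLP44 over all arrays lay above that of only 14.8% of the loci. Among markers of the labelled seedling in darkness, PORA, PORB and HLS1 had a mean level from 8.95 to 9.63 over the 12 arrays. Of 3 light-induced markers CAB2 lay between 2.14 and 3.00. ELIP1 lay between 5.83 and 7.30, with a mean above that of 61.2% of all loci. RBCS1A, which encodes a subunit of Rubisco, lay between 13.16 and 13.34, so neither ELIP1 nor RBCS1A was low.

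EARLI1 was the member with the largest difference in each comparison with PMEIox and between cnu1 and cnu2. It stood at 3.13, 3.80 and 2.77 on arrays A, B and C of Col-0 (mean 3.23 ± 0.52, SD, n = 3). In PMEIox it stood at 7.72, 7.40 and 7.39 (mean 7.50 ± 0.19, SD, n = 3). All 3 PMEIox arrays were far above all Col-0 arrays. In cnu1 the values were 2.85, 2.15 and 3.72 (mean 2.91 ± 0.78, SD, n = 3), and in cnu2 they were 4.37, 4.92 and 3.84 (mean 4.38 ± 0.54, SD, n = 3). The order of the means was thus cnu1, Col-0, cnu2 and PMEIox, with cnu1 and Col-0 overlapping, every cnu2 array above every cnu1 and Col-0 array, and PMEIox apart from the rest.

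Between PMEIox and Col-0 EARLI1 differed by 4.27 ± 0.37 (SE), which is 19.3-fold and the second largest positive difference of all loci. Between cnu1 and PMEIox it differed by -4.60 ± 0.37 (SE), 24.2-fold lower in cnu1 and the largest negative difference of all loci. Between cnu2 and PMEIox it differed by -3.13 ± 0.37 (SE), 8.73-fold lower in cnu2. The level in cnu2 left 26.8% of the log2 difference between PMEIox and Col-0, and that in cnu1 lay below Col-0. In whole seedlings, fewer cells of a type and less RNA per cell cannot be told apart. EARLI1 had a mean above only 20.4% of all loci in Col-0 and 16.0% in cnu1, against 78.3% in PMEIox. No detection calls were used here, so whether EARLI1 was above background in Col-0 and cnu1 is not known, and these folds are those of the deposited values.

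AZI1 followed another pattern, since it was high in cnu2 as well as in PMEIox. It stood at 8.84, 9.29 and 9.06 in Col-0 (mean 9.06 ± 0.23, SD, n = 3) and at 10.53, 10.31 and 10.16 in PMEIox (mean 10.33 ± 0.18, SD, n = 3). In cnu1 it stood at 9.28, 9.30 and 9.75 (mean 9.44 ± 0.26, SD, n = 3), and in cnu2 at 10.44, 10.55 and 10.31 (mean 10.43 ± 0.12, SD, n = 3). The arrays of cnu2 overlapped those of PMEIox, the arrays of cnu1 overlapped those of Col-0, and these pairs did not overlap each other. AZI1 differed by 1.27 ± 0.16 (SE, 2.41-fold) between PMEIox and Col-0 and by -0.89 ± 0.16 (SE) between cnu1 and PMEIox. Between cnu2 and PMEIox it differed by 0.10, with a 95% interval from -0.24 to 0.44. Of its difference between PMEIox and Col-0, 29.8% was left in cnu1 and 108% in cnu2.

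**Figure D1:**
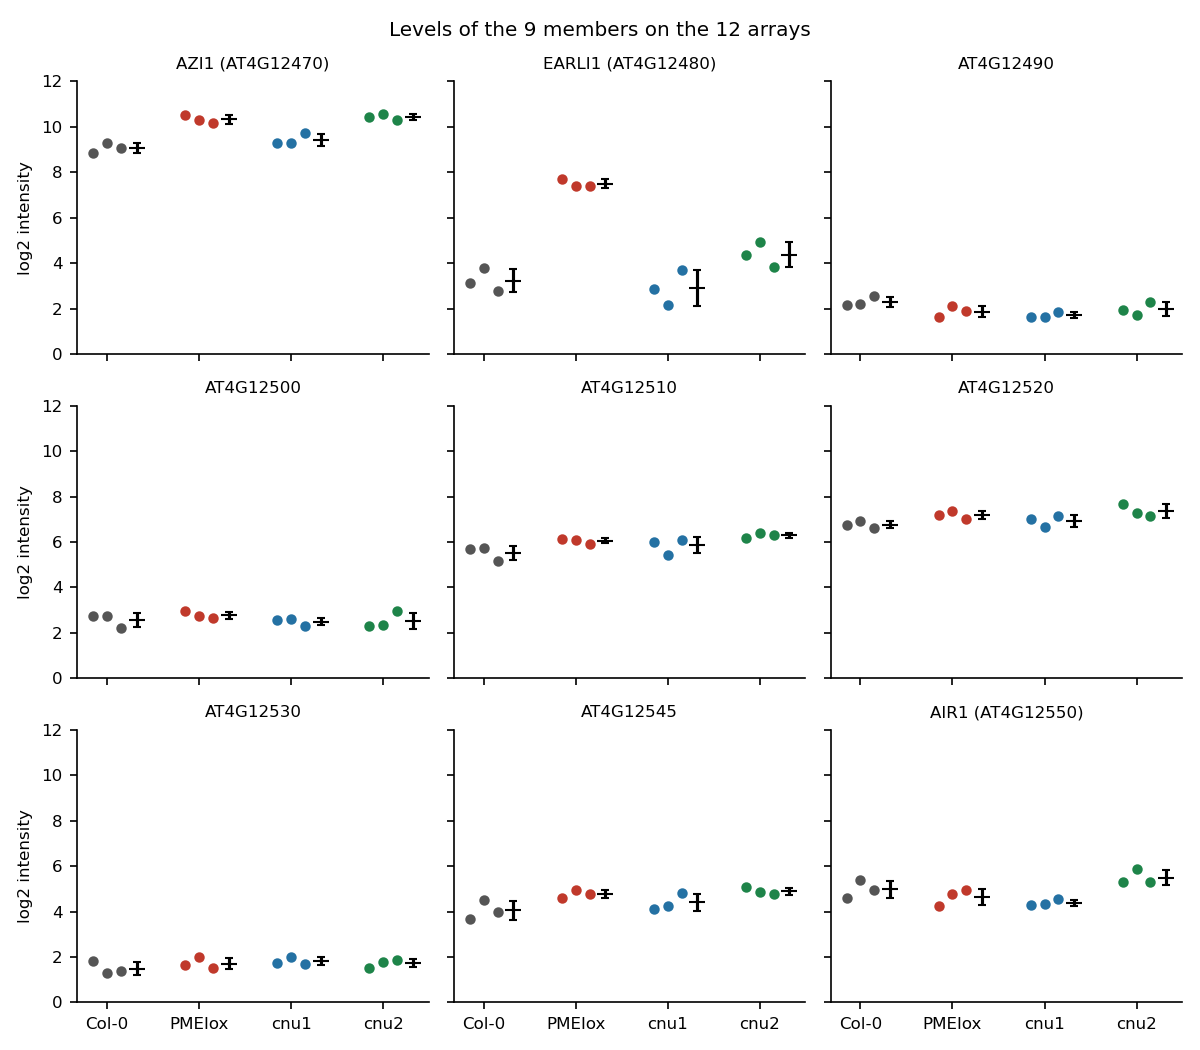
Log2 intensity (vertical axis) of the 9 members in the 4 genotypes (horizontal axis). Points are arrays A, B and C from left to right, and the black bar beside them is the mean with the SD (n = 3). EARLI1 stands at 7.39 to 7.72 in PMEIox and at 4.92 or less elsewhere, while AZI1 is at 10.16 or more in both PMEIox and cnu2.

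The remaining members fall by level into those near the bottom of the range and those in the middle. AT4G12490, AT4G12500 and AT4G12530 had genotype means from 1.49 to 2.78, each above at most 14.2% of all loci. Their differences between PMEIox and Col-0 were -0.43 ± 0.17, 0.21 ± 0.19 and 0.22 ± 0.17 (SE). AT4G12490 was the member whose 3 PMEIox arrays lay below all 3 Col-0 arrays, at 1.62, 2.12 and 1.89 against 2.14, 2.22 and 2.55.

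AT4G12510, AT4G12520 and AT4G12545 were measured at middle levels and had small differences of the sign seen for AZI1. AT4G12545 stood at 3.66, 4.52 and 3.97 in Col-0, at 4.58, 4.96 and 4.77 in PMEIox, at 4.12, 4.25 and 4.84 in cnu1 and at 5.06, 4.85 and 4.76 in cnu2. Its PMEIox and cnu2 arrays all lay above its Col-0 arrays, while cnu1 overlapped them. AT4G12510 had means of 5.52 in Col-0, 6.05 in PMEIox, 5.85 in cnu1 and 6.29 in cnu2. AT4G12520 had means of 6.76, 7.19, 6.93 and 7.36 in the same order. For both, too, no PMEIox or cnu2 array lay as low as a Col-0 array. Between PMEIox and Col-0 the differences were 0.72 ± 0.22 for AT4G12545, 0.53 ± 0.18 for AT4G12510 and 0.43 ± 0.17 for AT4G12520 (SE).

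AIR1 had its highest mean in cnu2. It stood at 4.60, 5.37 and 4.95 in Col-0, at 4.24, 4.75 and 4.95 in PMEIox, at 4.28, 4.33 and 4.54 in cnu1 and at 5.32, 5.88 and 5.28 in cnu2. The cnu2 arrays lay above all PMEIox and all cnu1 arrays and overlapped those of Col-0. The difference was -0.33 ± 0.23 (SE) between PMEIox and Col-0 and 0.85 ± 0.23 (SE, 1.80-fold) between cnu2 and PMEIox.

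Counted over the cluster, 2 of 9 members passed limma's threshold (an adjusted p under 0.05 over all loci) between PMEIox and Col-0, where 5.25% of all loci passed. Between cnu1 and PMEIox 2 of 9 passed, against 6.44% of all loci, and between cnu2 and PMEIox 1 of 9, against 3.25%. With the replicate letter as a block the last count was 2, with AIR1 added. These are EARLI1 and AZI1 in the first pair of comparisons and EARLI1 in the last, and since EARLI1 was known when the cluster was picked, nothing is read from these counts. The values of the compared genotypes did not overlap for 6, 3 and 3 of the 9 members, against 22.9%, 25.9% and 22.6% of all loci. The median difference of the members was 0.43, -0.27 and 0.10, where that of all loci was -0.0049, -0.0020 and 0.00. These comparisons share the PMEIox arrays.

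The comparison of cnu2 with Col-0 asks how far the second suppressor stands from the wild type. AZI1 rose by 1.37 ± 0.16 (SE, 2.58-fold, limma adjusted p = 0.00584, higher in 3 of 3 arrays), and its difference was the tenth largest positive one of all loci. It was the 1 member of 9 to pass, where 0.187% of all loci did. The call ended in a fit of these genotypes alone (adjusted p = 0.0533), in which 0 of the 27827 loci passed. Over the other alternatives the adjusted p of AZI1 stayed below the threshold, from 0.000122. EARLI1 differed by 1.15 ± 0.37 (SE, adjusted p = 0.264), AT4G12545 by 0.84 ± 0.22 (SE, adjusted p = 0.185), AT4G12510 by 0.77 ± 0.18 (SE, adjusted p = 0.146) and AT4G12520 by 0.60 ± 0.17 (SE, adjusted p = 0.191). Each of these 4, and AZI1, had all cnu2 arrays above all Col-0 arrays, which makes 5 of 9 members, against 7.54% of all loci with the same order and 15.5% whose values did not overlap in either direction. AIR1 differed by 0.52 ± 0.23 (SE, adjusted p = 0.411), with overlapping arrays. The members' median difference was 0.60, against 0.0020 for all loci. AT4G12510 passed with the trend and robust settings of limma (adjusted p = 0.0424).

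The comparison of cnu1 with Col-0 asks the same of the first suppressor. With limma 0 of 9 members passed, where 0.622% of all loci did, and 3 of 9 had an unadjusted p under 0.05, against 13.9% of all loci, namely AZI1, AT4G12490 and AIR1. AZI1 differed by 0.38, with a 95% interval from 0.04 to 0.72 (adjusted p = 0.294). EARLI1 differed by -0.33, with an interval from -1.14 to 0.49 (adjusted p = 0.756). AIR1 differed by -0.59 ± 0.23 (SE, adjusted p = 0.263) and AT4G12490 by -0.59 ± 0.17 (SE, adjusted p = 0.144), and these were the 2 members whose cnu1 arrays did not overlap those of Col-0. Both lay below, as did 9.54% of all loci, and 19.6% did not overlap in either direction. The median of the members was 0.16, against 0.0029 for all loci.

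The comparison of cnu1 with cnu2 asks whether the cluster stands at different levels in the suppressors, which carry the same transgene. The mutations in BRI1 and RLP44 cannot be told apart here from other differences between the lines. AZI1 was lower in cnu1 by 0.99 on the log2 scale (-0.99 ± 0.16, SE, 1.99-fold, limma adjusted p = 0.0149, lower in 3 of 3 arrays), and was the 1 member of 9 to pass, where 0.568% of all loci did. This call ended when array A or B of cnu1 (adjusted p = 0.0763 and 0.0744) or array A or B of cnu2 (adjusted p = 0.0598 and 0.0713) was left out. With these omissions 66 to 84 of all loci passed, against 158 with all arrays. Without array C of cnu1 or of cnu2, where the call held, 76 and 79 passed. AIR1 differed by -1.11 ± 0.23 (SE, 2.15-fold lower in cnu1, adjusted p = 0.0589). It passed without the lowest 40% of loci (adjusted p = 0.0257), with the trend and robust settings (adjusted p = 0.0158), with the replicate letter as a block (adjusted p = 0.0276) and without array A or B of Col-0 (adjusted p = 0.0495 and 0.0473) or array A of PMEIox (adjusted p = 0.0456). EARLI1 differed by -1.47 ± 0.37 (SE, adjusted p = 0.152, from 0.0638 to 0.412 over the alternatives). For AZI1, EARLI1, AIR1 and AT4G12510, 4 of 9 members, all cnu1 arrays lay below all cnu2 arrays, against 6.3% of all loci with the same order and 13.2% that did not overlap in either direction. AT4G12510, AT4G12520 and AT4G12545 differed by -0.45, -0.44 and -0.49 (adjusted p = 0.487, 0.443 and 0.583). The members' median was -0.45, against -0.00065 for all loci.

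**Figure D2:**
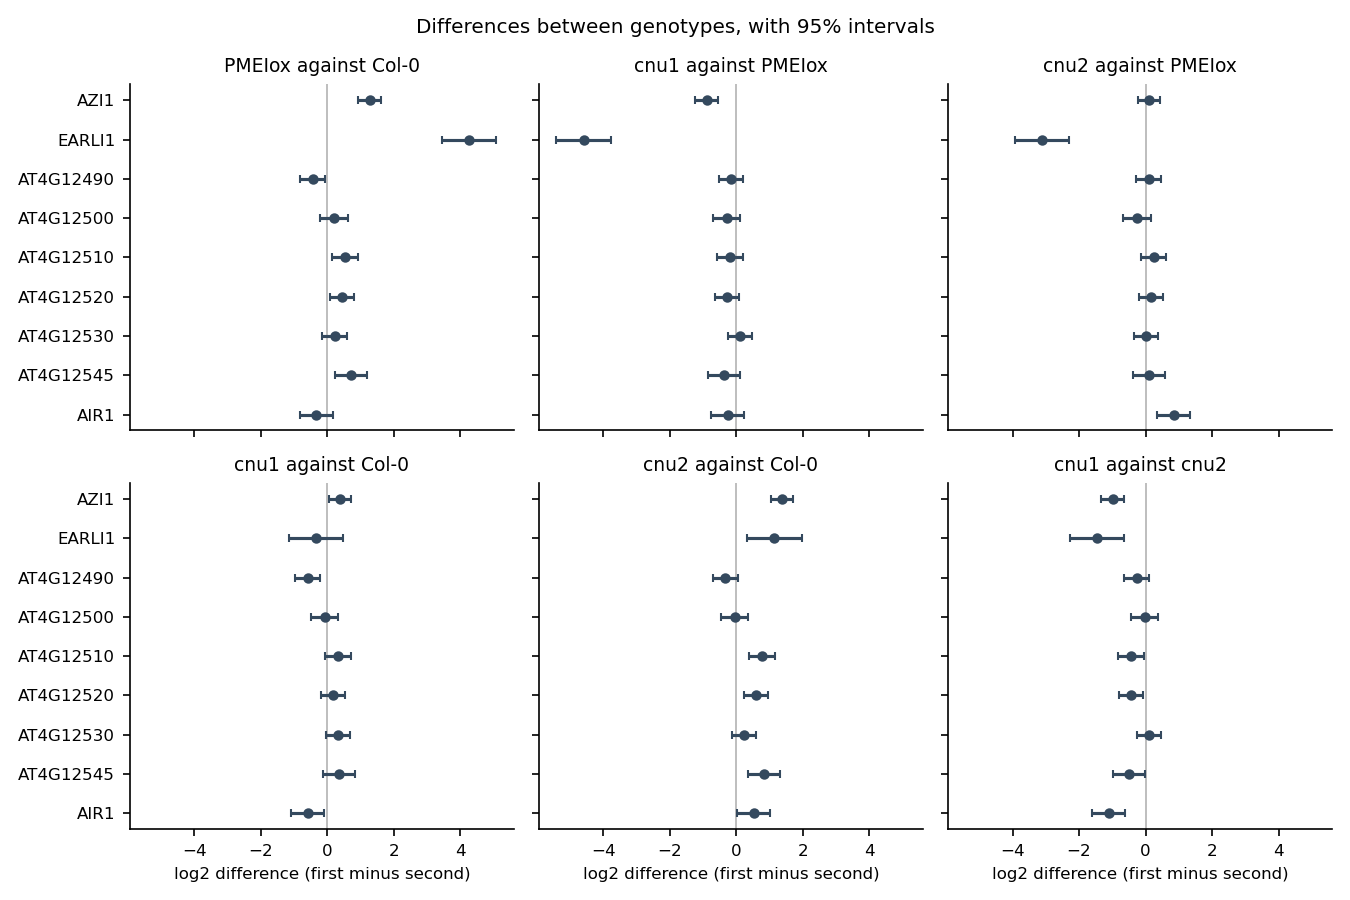
Log2 difference, first genotype minus second (horizontal axis), of each member (vertical axis) in the 6 comparisons. Points are limma estimates and bars their 95% intervals. EARLI1 lies at 4.27 between PMEIox and Col-0 and at -4.60 and -3.13 between cnu1 or cnu2 and PMEIox, while AZI1 lies at 0.10 between cnu2 and PMEIox.

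The loci beside the cluster were compared next. The nearest 5 measured loci on each side and AT4G12540, which lies among the members but is not of their protein type by the list used, were taken in the order of the TAIR10.1 gene table. Of these 11 neighbours 0 passed limma's test in any of the 6 comparisons, with 0 to 2 in each at an unadjusted p under 0.05. The share of all loci that passed ran from 0.187% to 6.44%, so nothing is read from these counts of 0. Between cnu1 and Col-0 1 neighbour had an unadjusted p under 0.05, against 13.9% of all loci. For the other comparisons that share is not given here, and nothing is read from the unadjusted counts. Their differences between PMEIox and Col-0 ran from -0.27 for APT4 (AT4G12440) to 0.32 for SKU5 (AT4G12420), which encodes a wall-associated protein of directional root growth. ORP2B (AT4G12460), the locus before AZI1, differed by 0.04 ± 0.14 (SE, adjusted p = 0.927). CPR1 (AT4G12560), the locus after AIR1 and known as a negative regulator of defence receptors, differed by -0.23 ± 0.12 (SE, adjusted p = 0.331). AT4G12540 differed by 0.03 between PMEIox and Col-0 and by 0.61 between cnu1 and cnu2 (adjusted p = 0.280), where AT4G12530 at 0.09 was the 1 member with a positive difference. Whether members and neighbours differ was not tested.

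**Figure D3:**
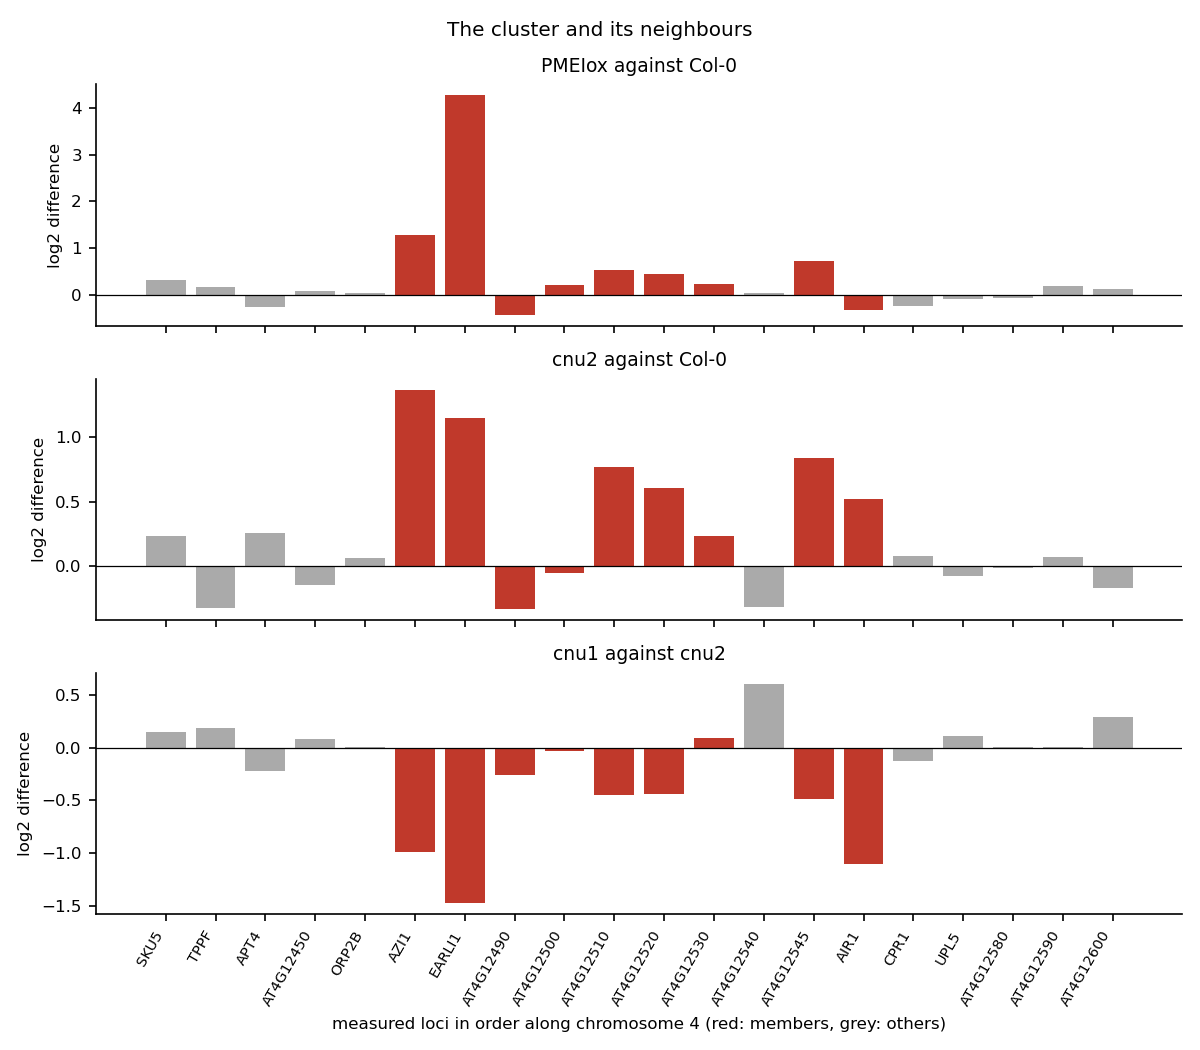
Log2 difference (vertical axis) of 20 measured loci in their order along chromosome 4 (horizontal axis) in 3 comparisons, with members in red and other loci in grey. Between PMEIox and Col-0 the grey bars lie within -0.27 and 0.32, and EARLI1 reaches 4.27. The vertical scales differ between the panels.

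Across the 12 arrays the members did not form a single pattern. AZI1 had Pearson's r of 0.87 with AT4G12545, 0.82 with AT4G12520, 0.81 with AT4G12510 and 0.72 with EARLI1, and 0.36 with AIR1. EARLI1 had r of 0.57 with AT4G12545, 0.52 with AT4G12520, 0.48 with AT4G12510 and 0.03 with AIR1. AT4G12510 and AT4G12520 had r of 0.83 with each other. These correlations over 12 arrays of 4 genotypes are descriptions of the same samples.

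The loci most like EARLI1 over the 12 arrays had their highest mean in PMEIox. They were picked for that likeness on the same arrays, so their pattern follows from the choice and is no separate support. Among 593 loci with an SD of at least 0.5, the 5 with the highest r were SAUR9 (AT4G36110), a small auxin-up RNA gene, at 0.97, AT1G53080 at 0.97, SLAH2 (AT4G27970), an anion channel gene, at 0.97, CLE6 (AT2G31085), which encodes a signalling peptide, at 0.96, and AT5G04970 at 0.96. CLE6 stood at 4.22 ± 0.32 in Col-0, 6.98 ± 0.17 in PMEIox, 3.91 ± 0.18 in cnu1 and 4.68 ± 0.16 in cnu2 (SD, n = 3). SAUR9 stood at 6.17 ± 0.31, 7.92 ± 0.08, 6.05 ± 0.28 and 6.82 ± 0.10 in the same order. All 5 had their cnu2 mean between those of Col-0 and PMEIox. The cnu1 mean was the lowest for SAUR9, CLE6 and AT5G04970, as for EARLI1, while Col-0 was the lowest for AT1G53080 (4.55 against 4.64 in cnu1) and level with cnu1 for SLAH2 (6.49 in both).

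The loci most like AZI1 were others. They were ACS8 (AT4G37770), which encodes an enzyme of ethylene synthesis, at r = 0.95, AT1G23510 at 0.93, YUC3 (AT1G04610), which encodes an enzyme of auxin synthesis, at 0.86, AT3G51410 at 0.86 and AT1G77330 at 0.85. ACS8 stood at 5.69 ± 0.12 in Col-0, 7.10 ± 0.10 in PMEIox, 6.07 ± 0.20 in cnu1 and 6.94 ± 0.17 in cnu2 (SD, n = 3), which is the order of AZI1 but for PMEIox and cnu2. Between cnu2 and Col-0 4 of the 5 rose, namely ACS8 by 1.25 ± 0.13 (SE, adjusted p = 0.00498), AT3G51410 by 0.80 (adjusted p = 0.0166), YUC3 by 0.96 (adjusted p = 0.0387) and AT1G23510 by 0.88 (adjusted p = 0.0463). Between cnu1 and cnu2 ACS8 fell by 0.87 (adjusted p = 0.00937) and AT1G23510 by 0.96 (adjusted p = 0.0150), and the other 3 differed by -0.56 to -0.43 (adjusted p from 0.0772 to 0.283). These loci were picked for their likeness to AZI1 on the same arrays, so their values are no separate support.

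**Figure D4:**
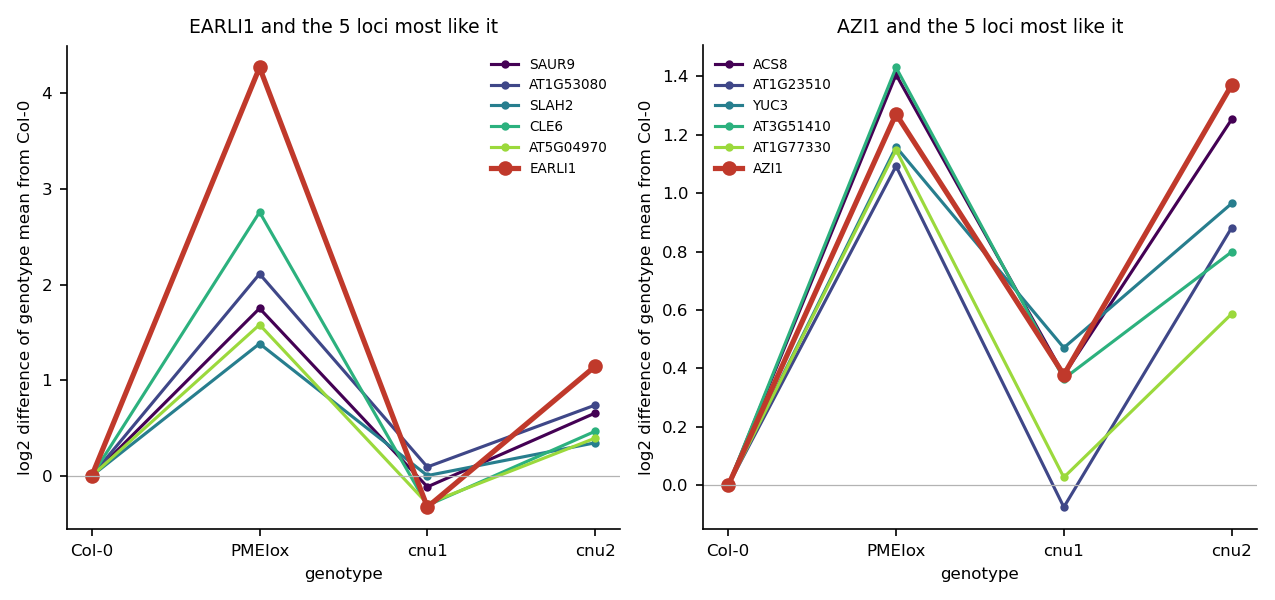
Difference of each genotype's mean from the Col-0 mean on the log2 scale (vertical axis) in the 4 genotypes (horizontal axis), for EARLI1 (left, red) and AZI1 (right, red) and the 5 loci with the highest Pearson's r to each. Lines join the values of a locus. In cnu2 EARLI1 lies at 1.15 of its 4.27 in PMEIox and AZI1 at 1.37 against 1.27, and the vertical scales differ.

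Related proteins encoded elsewhere in the genome were compared with the cluster. Of 19 listed genes for hybrid proline-rich and related proteins outside it, 2 rose and 0 fell between PMEIox and Col-0 (median 0.10, against -0.0049 for all loci). AT4G00165 rose by 1.01 ± 0.11 (SE, adjusted p = 0.000258), from 6.42, 6.19 and 6.25 in Col-0 to 7.30, 7.26 and 7.34 in PMEIox. It stood at 6.30, 6.01 and 5.99 in cnu1 and at 6.70, 6.42 and 6.53 in cnu2, so both suppressors overlapped Col-0 and lay below every PMEIox array. It fell by 1.20 between cnu1 and PMEIox (adjusted p = 4.79e-05) and by 0.75 between cnu2 and PMEIox (adjusted p = 0.00347). The other call between PMEIox and Col-0, AT4G22470 at 0.66 (adjusted p = 0.0232), ended without array A of Col-0 or any 1 array of PMEIox (adjusted p up to 0.0765). In cnu1 against PMEIox 0 rose and 2 fell, and in cnu2 against PMEIox 1 rose and 2 fell. Leaving out an array gave 1 to 3 calls in either of these comparisons. With limma 0 passed between either suppressor and Col-0 or between the suppressors, with 3 to 7 at an unadjusted p under 0.05. Of all loci 0.622% passed between cnu1 and Col-0, 0.187% between cnu2 and Col-0 and 0.568% between the suppressors. The shares were 5.25% for PMEIox against Col-0, 6.44% for cnu1 against PMEIox and 3.25% for cnu2 against PMEIox. Between cnu1 and Col-0 13.9% had an unadjusted p under 0.05. For the other comparisons that share is not given here, so nothing is read from counts at an unadjusted p, here or in any list below. The given shares hold for each list below too, and nothing is read from a count of 0.

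Classical lipid transfer proteins, which are secreted and are thought to carry lipids for the cuticle, were measured too. Of 12 such genes 1 rose and 1 fell between PMEIox and Col-0, with a median of -0.07. LTP2 (AT2G38530) was called at 0.33 (adjusted p = 0.0485) and LP1 (AT2G38540) at -0.52 (adjusted p = 0.0371). The LTP2 call ended when any 1 of the 12 arrays was left out (adjusted p up to 0.158), and the LP1 call ended in 7 of the 12 omissions (adjusted p up to 0.139). Between cnu1 and PMEIox LTP2 fell by 0.46 (adjusted p = 0.00652). With limma 0 of the 12 passed in the other 4 comparisons, with 1 to 3 at an unadjusted p under 0.05. There 0.187% to 3.25% of all loci passed.

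Genes of the defence pathway in which AZI1 is known to act were compared next. Of 24 listed genes for systemic acquired resistance, salicylic acid and the synthesis of azelaic acid and glycerol-derived signals, 1 rose and 0 fell between PMEIox and Col-0 (median 0.03). The riser was PR5 (AT1G75040), a pathogenesis-related gene, at 0.47 (adjusted p = 0.0487), whose call ended in 11 of 12 omissions of an array (adjusted p up to 0.155). Between cnu1 and PMEIox 2 rose and 0 fell. They were EDS16 (AT1G74710), which encodes isochorismate synthase of salicylic acid synthesis, at 0.78 ± 0.14 (SE, adjusted p = 0.00476) and HWI1 (AT1G70690), which encodes a plasmodesmal protein, at 0.74 ± 0.14 (SE, adjusted p = 0.00858). EDS16 was also higher in cnu1 than in cnu2 by 0.71 (adjusted p = 0.0443), a call that ended in 9 of 12 omissions (adjusted p up to 0.180). With limma 0 of the 24 passed in the other 3 comparisons, with 4 to 7 at an unadjusted p under 0.05. In these, 0.187% to 3.25% of all loci passed.

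Auxin-induced genes of lateral roots were measured beside AIR1. Of 8 such genes 0 rose and 1 fell between PMEIox and Col-0. LBD29 (AT3G58190), a transcription factor gene of lateral root initiation, fell by 1.14 ± 0.20 (SE, adjusted p = 0.00582), from 7.19, 6.80 and 6.97 to 6.08, 6.07 and 5.40. Between cnu1 and PMEIox 1 rose and 1 fell: LBD29 rose by 1.14 ± 0.20 (SE, adjusted p = 0.00477). EXPA17 (AT4G01630), which encodes an expansin, fell by 0.61 (adjusted p = 0.0308), a call that ended in 5 of 12 omissions of an array (adjusted p up to 0.114). AIR1 differed by -0.26 there. Between cnu2 and PMEIox LBD29 was called at 0.82, a call that ended in 11 of 12 omissions (adjusted p up to 0.148). With limma 0 of the 8 passed between either suppressor and Col-0 or between the suppressors, with 2 to 3 at an unadjusted p under 0.05. There 0.187% to 0.622% of all loci passed.

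Markers of other organs and stages moved with some of these values. Of 14 seed storage and late embryo markers 13 passed and were higher in PMEIox than in Col-0 (median 2.24), 13 lower in cnu1 than in PMEIox (median -2.29) and 11 lower in cnu2 than in PMEIox (median -1.96). Their mean level per array ran from 5.36 to 5.48 in Col-0, from 7.41 to 7.83 in PMEIox, from 5.18 to 5.56 in cnu1 and from 5.30 to 5.93 in cnu2. It moved with EARLI1 over the 12 arrays (r = 0.93), and its part in the EARLI1 result was not tested. Of the 14, 0 passed between cnu2 and Col-0, where 0.187% of all loci did. There 2 had an unadjusted p under 0.05, and the median was 0.10. Between cnu1 and cnu2 0 of the 14 passed, where 0.568% of all loci did. There 4 had an unadjusted p under 0.05, and the median was -0.26. With so few of all loci passing, nothing is read from these counts of 0. The part of the seed markers in the AZI1 result was not tested. Of 9 root markers 0 passed in any comparison, where 0.187% to 6.44% of all loci did, with 0 to 3 at an unadjusted p under 0.05. Of 4 root hair markers 2 rose between PMEIox and Col-0, EXPA18 (AT1G62980) and PRP3 (AT3G62680). The PRP3 call ended in 2 of 12 omissions of an array (adjusted p up to 0.0561). Between cnu2 and PMEIox PRP3 differed by -1.09 (limma adjusted p = 0.0227), a call that ended in 4 of 12 omissions (adjusted p up to 0.0750). Of the 4, 0 passed in the other comparisons, where 0.187% to 6.44% of all loci did. Their mean level ran from 3.25 to 3.27 in Col-0, 3.73 to 4.16 in PMEIox, 3.74 to 4.00 in cnu1 and 3.37 to 3.44 in cnu2. The part of the root hair markers in the members' values was not tested.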

How the data were processed

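The deposited table holds 1 value for each of 27827 loci on each of 12 arrays, read as log2 intensities: the log base was taken from the values, which run from 0.785 to 13.9. Once sorted, the columns of the 12 arrays matched exactly, so they had been put on a common distribution before the authors deposited them. The array model, background correction and probe summary are not given in the sources used here. Locus names and order came from a TAIR10.1 RefSeq table, which held 27241 of the loci.

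Differences were fitted with limma 3.58.1 (R 4.3.3) by lmFit on the genotype means of all 12 arrays and eBayes (8 residual and 4.06 prior degrees of freedom), with two-sided p-values adjusted by Benjamini-Hochberg over all loci. Beyond the word biological and the harvests in successive weeks, the labels do not say how separate the replicate seedlings were. The p-values weigh a difference of genotype means against the spread between these samples, moderated over all loci. The main fit leaves out the replicate letter. On simulated data for PMEIox against Col-0 over 27827 loci, 50 loci were changed at each size. Of those changed by 0.5, 26% were called, with 88% at 1, 98% at 2 and 100% at 4, and 11 false calls. In the deposited data 1460 loci passed in that comparison, and 52 to 173 in those without PMEIox arrays. The adjusted p depends on how many loci change, so the simulated shares do not carry over to the members' tests.

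All 9 members are named, with 5 neighbours on each side, the 5 loci with the highest r to EARLI1 and to AZI1 among loci with an SD of at least 0.5, and called members of the lists among the 4 smallest adjusted p of a comparison. The members and lists were chosen with earlier results of these data known. Lists were read by counts and medians, without set tests. Replicates were harvested in successive weeks per the labels, so a letter may mark a week. Deviations from the genotype means correlated from -0.14 to 0.19 between arrays of the same letter (median 0.075) and from -0.13 to 0.13 between others (median -0.031), and 9 of 12 arrays correlated best with one of their own letter. The letter as a block was one of the alternatives. Figures were drawn with matplotlib 3.10.9. Precision is limited by the number of arrays; a difference had a median standard error of 0.137.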

Additional observations from a re-analysis of the deposited data

Results flagged for a closer look

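The suppressors cnu1 and cnu2 differed at AZI1 by limma's own contrast. Relative to the same PMEIox parent, AZI1 differed by -0.89 in cnu1 and by 0.10 in cnu2. The difference between the suppressors was -0.99 ± 0.16 (SE, adjusted p = 0.0149, lower in 3 of 3 cnu1 arrays). The part of the mutations in it was not tested. Leaving out each array in turn gave -1.14 to -0.91, and the call ended in 4 of the 12 omissions, those of array A or B of cnu1 or cnu2 (adjusted p from 0.0598 to 0.0763).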

How the results depend on the processing

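The alternatives were quantile normalization again, centring on 10 reference genes, leaving out the lowest 40% of loci, the trend and robust settings (statmod 1.5.0), a fit to only the arrays of the genotypes compared, a block for the replicate letter, and the omission of 1 array at a time. The arrays already shared a common distribution, so quantile normalization again could change nothing and is no check of the results. Leaving out the lowest 40% of loci removes EARLI1 for its low mean. Under that setting 1 member passed between PMEIox and Col-0 and 1 between cnu1 and PMEIox. Between cnu2 and PMEIox AIR1 passed in place of EARLI1, so the count stayed at 1. Between cnu1 and cnu2 2 passed. The trend and robust settings gave 2 members for cnu2 against PMEIox, 2 for cnu2 against Col-0 and 2 for cnu1 against cnu2. The replicate block gave 2 for cnu2 against PMEIox and 2 for cnu1 against cnu2, with AIR1 as the added call (adjusted p = 0.0276 between the suppressors). The block changed no other call of a member. The fit of the compared genotypes gave 0 members for cnu2 against Col-0, where 0 of all loci passed. The cause of the other shifts was not tested. Leaving out an array gave 0 to 2 members between cnu1 and cnu2, 2 to 3 between PMEIox and Col-0, and no change in the other 4 counts. EARLI1 ranged from 4.04 to 4.55 between PMEIox and Col-0 and AZI1 from 1.26 to 1.48 between cnu2 and Col-0. Signs turned, with no call, for AT4G12490 (-0.060 to 0.24) and AT4G12530 (-0.080 to 0.15) between cnu2 and PMEIox, for EARLI1 between cnu1 and Col-0 (-0.73 to 0.049, the latter without cnu1 B), for AT4G12500 between cnu1 and Col-0 (-0.25 to 0.013), cnu2 and Col-0 (-0.26 to 0.064) and cnu1 and cnu2 (-0.14 to 0.18), and for AT4G12530 between cnu1 and cnu2 (-0.00903 to 0.17). For the lists, 46 of the 720 counts under the other settings moved by over 1.5 times. The 720 include those of quantile normalization again, which could not move. Alternatives at the level of probes were not run, because each locus has a single deposited entry per array.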

Other observations

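Replicates of a genotype also differed together at several members. On array C of cnu1 7 of 9 members had the highest value of their genotype, AZI1, EARLI1 and AIR1 among them, and on array B of Col-0 6 of 9. On array A of cnu1 this held for 0 members. The share of all loci with their highest value on these arrays was not computed, so nothing is read from these counts. After subtracting genotype means, the deviations of AZI1 over the 12 arrays had r of 0.79 with those of EARLI1 and 0.71 with those of AT4G12545, and AIR1 had 0.64 with AT4G12545. AT4G12530 had -0.50 with AZI1. These values describe the same 12 arrays and were looked at after the data were seen.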
